A study of Xenopus tropicalis x Xenopus laevis and Xenopus tropicalis with 6 samples.

Results

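The mitochondrial carrier genes of the slc25a family were followed in *Xenopus* hybrid embryos, separately for the maternal and the paternal gene copies. Members were all features of the deposited count table whose gene symbol, with an ending .L or .S removed, starts with slc25a and a number. There were 82 of 45244 features, 36 of 18062 *X. tropicalis* features and 46 of 27182 *X. laevis* features, and they carried 39 gene names. Hybrid embryos, from *X. tropicalis* eggs given *X. laevis* sperm (replicates 40, 41 and 42), were set against *X. tropicalis* embryos (replicates 37, 38 and 39). Both groups were whole embryos 7 hours after fertilization and develop from an *X. tropicalis* egg, and polyA RNA was sequenced from 3 libraries each. The labels do not say how many embryos or which parents stand behind a library.

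Carriers of this family are small proteins that mostly sit in the inner mitochondrial membrane and move nucleotides, phosphate, carboxylates, amino acids, cofactors and metal ions between the cytosol and the matrix. They link oxidative phosphorylation, the citric acid cycle, amino acid breakdown and heme synthesis to the rest of the cell. An early frog embryo inherits its mitochondria and much of its messenger RNA from the egg, and begins to transcribe its own genome before gastrulation. *X. laevis* is allotetraploid, so a paternal gene can have a copy on a long (L) and on a short (S) chromosome. In the roles named in this text, the substrates are those known for the mammalian proteins.

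Total counts per library were 71435751 to 88526278 in hybrids and 90144765 to 100025277 in *X. tropicalis*. Of these, 120625 to 158727 lay on slc25a features in hybrids and 167178 to 187453 in *X. tropicalis*. Every hybrid library thus had fewer counts than every *X. tropicalis* library. *X. laevis* features took 16.7% ± 1.20 of the counts in hybrids and 5.66% ± 0.302 in *X. tropicalis* libraries (SD, n = 3 each). Counts on *X. laevis* features in *X. tropicalis* libraries are background, since those embryos hold no *X. laevis* genome. The difference of 11.1 percentage points gave p = 0.1 in a 2-sided exact permutation test, the smallest value that 3 against 3 libraries allow. Of 17 *X. tropicalis* gastrula marker features found, 16 were above 1 CPM in every library (CPM, counts scaled to the effective library size and not to transcript length). Their summed level was 2581 to 3312 CPM in hybrids and 4637 to 4738 CPM in *X. tropicalis*. The *X. laevis* copies of these markers were not included, so the hybrid sums leave out counts on paternal features. Of late differentiated tissue, 4 *X. tropicalis* features summed to at most 1.02 CPM in any library. In whole embryos, fewer cells of a type and less RNA per cell cannot be told apart. The part of the lower level of these *X. tropicalis* marker features in the results was not tested.

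*X. tropicalis* features, called maternal here, are taken to stand for the egg's genome and RNA in hybrids. How many *X. laevis* reads were assigned to them there was not measured. In *X. tropicalis* embryos the *X. tropicalis* features stand for both parents. Of these carriers 1 passed the test for a difference between the groups. CPM were scaled on *X. tropicalis* features, so changes in them are relative to the bulk of those features. Summed over the 36 *X. tropicalis* features, the libraries had 1527, 1751 and 1810 CPM in hybrids, against 1686, 1767 and 1733 CPM in *X. tropicalis*, so the groups overlapped. With edgeR's quasi-likelihood test and Benjamini-Hochberg adjustment over all *X. tropicalis* features, 1 of 36 members was lower in hybrids and 0 were higher. Over all 14079 features tested, 2.97% were lower and 0.767% higher, so the members' count lay near that background. Before adjustment, 3 lower and 3 higher members had p below 0.05, and the share of all features at that threshold was not counted. DESeq2 called 2 members lower and 1 higher. Over all 14079 features it called 805 lower, and 32.7% of all its calls were higher. The median log2 fold change was 0.06 for the members and 0.00 for all features tested, and -0.082 and -0.15 with library totals in place of the trimmed-mean (TMM) factors. All 36 members passed the filter on low counts.

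**Figure D1:**
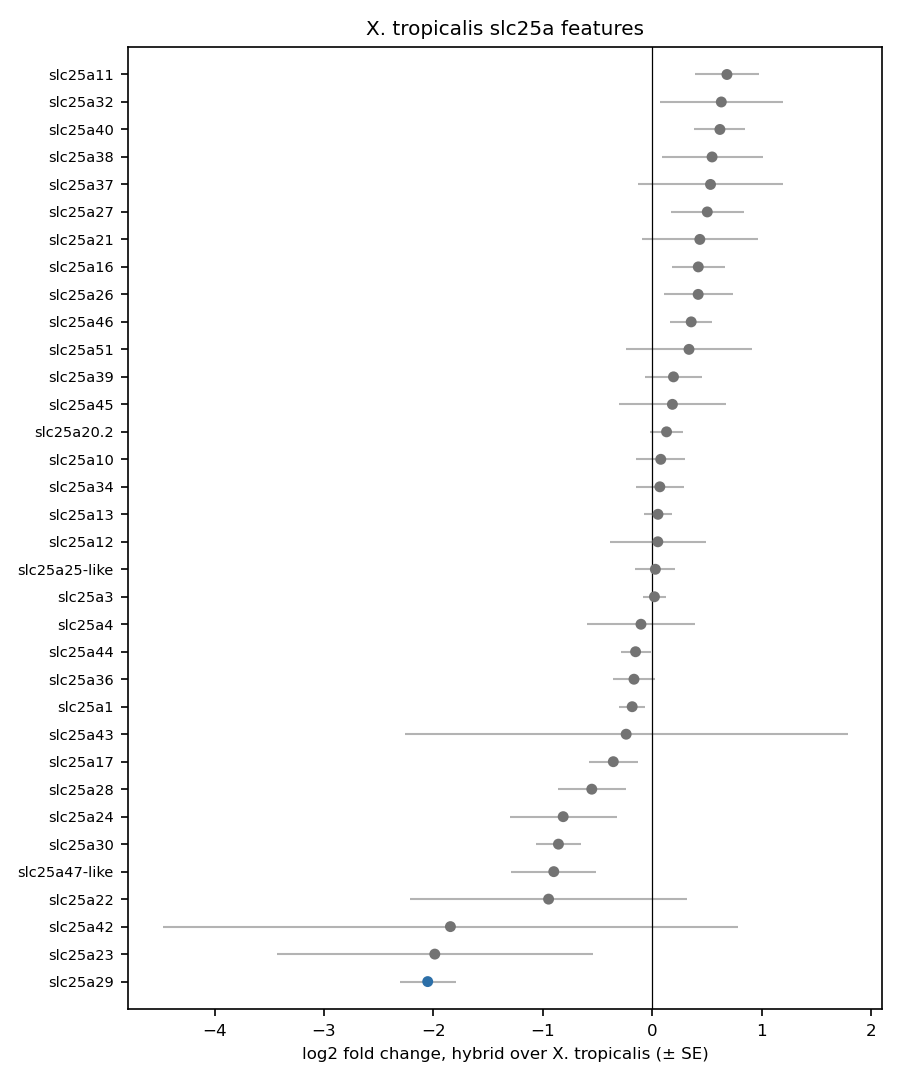
Log2 fold change of maternal (*X. tropicalis*) slc25a features, hybrid over *X. tropicalis* embryos, with bars of ± 1 SE (3 libraries per group); slc25a48 is left out because it had no count in *X. tropicalis*. The blue point, slc25a29 at -2.05, is the member that passed the test, and grey points did not pass.

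The member that fell was slc25a29 (Xetrov90021380m, *X. tropicalis* chromosome 8), whose mammalian protein carries basic amino acids such as arginine and lysine into mitochondria. It had 14.5, 15.6 and 8.70 CPM in hybrids, against 62.8, 46.2 and 52.3 CPM in *X. tropicalis*. Every hybrid library was below every *X. tropicalis* library, and hybrid replicate 42 was the lowest. The log2 fold change was -2.05 ± 0.26 SE (edgeR adjusted p = 0.00122), and with each library left out in turn it stayed between -2.20 and -1.83 with an adjusted p of at most 0.00721. Both paternal copies lay above background (edgeR adjusted p = 0.0313 for L and 5.83e-04 for S), the L copy not with every library left out (adjusted p up to 0.0995). The copy slc25a29.S had 8.71, 8.90 and 8.94 CPM in hybrids, against a background of 1.81, 0.475 and 0.0280 CPM in *X. tropicalis* libraries. The copy slc25a29.L had 2.94, 3.86 and 4.19 CPM in hybrids, against 0.0918, 0.697 and 1.08 CPM. Summed over the 3 copies, slc25a29 averaged 25.5 ± 3.34 CPM in hybrids, against 55.2 ± 8.78 CPM in *X. tropicalis* embryos (SD, n = 3 each; log2 fold change -1.11 ± 0.19 SE, edgeR adjusted p = 0.00394). The total was thus also lower in hybrids, with paternal copies counted.

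**Figure D2:**
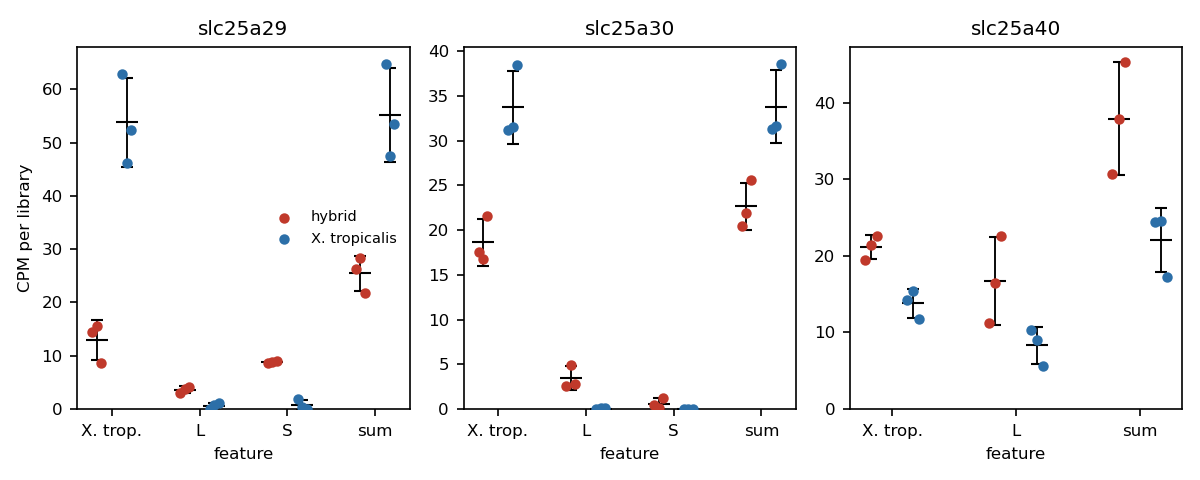
CPM per library (points), mean and SD (bars) of slc25a29, slc25a30 and slc25a40 on the maternal feature (X. trop.), on the paternal L and S features and as their sum, with hybrids in red left of *X. tropicalis* embryos in blue. For slc25a29 the hybrid sum of 25.5 CPM lies below the 55.2 CPM of *X. tropicalis*, while for slc25a40 all hybrid sums lie above all *X. tropicalis* sums and the *X. laevis* feature has counts in both groups.

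Of the other 35 maternal members, slc25a30 lay nearest to the threshold. It encodes a carrier related to the uncoupling proteins. It had 17.5, 16.8 and 21.6 CPM in hybrids, against 31.2, 31.5 and 38.5 CPM in *X. tropicalis*, with no overlap between the groups. The log2 fold change of -0.86 ± 0.21 SE did not pass (edgeR adjusted p = 0.0510), and it passed with DESeq2 (adjusted p = 0.00879). Its paternal copy slc25a30.L had 2.54, 4.96 and 2.76 CPM in hybrids and at most 0.0951 CPM in *X. tropicalis* libraries. The sum of its copies was 22.7 ± 2.67 CPM in hybrids, against 33.8 ± 4.11 CPM in *X. tropicalis* embryos (log2 fold change -0.58, edgeR adjusted p = 0.0905). The related slc25a27 was at 14.3, 25.8 and 23.99 CPM in hybrids, against 9.38, 20.005 and 15.9 CPM in *X. tropicalis*, and its groups overlapped.

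The maternal feature of slc25a48, a less characterised carrier, was counted in hybrids alone. It had 108, 16 and 178 counts in hybrids and 0 in each *X. tropicalis* library. Against a floor of 3 counts over the 3 *X. tropicalis* libraries, the hybrid level pooled over libraries was 134-fold higher. That floor covers counting error only and not the spread between libraries. The hybrid libraries ranged from 0.188 to 2.74 CPM, and the difference did not pass over all features (edgeR adjusted p = 0.0715; DESeq2 adjusted p = 6.48e-05). The name slc25a48 has no *X. laevis* feature in the table, and how many *X. laevis* reads were assigned to the *X. tropicalis* feature was not measured.

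Groups without overlap were seen for 8 of the 36 maternal members, near the 24.5% of all features tested. The 5 that were lower in every hybrid library were slc25a1, slc25a23, slc25a29, slc25a30 and slc25a47-like, beside 13.2% of all features. The 3 that were higher were slc25a40, slc25a46 and slc25a48, beside 11.3%. Apart from slc25a29, these did not pass the test.

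Among the adenine nucleotide and phosphate carriers, the maternal features did not pass in either direction. The phosphate carrier slc25a3, which supplies phosphate for ATP synthesis, had 364, 352 and 362 CPM in hybrids, against 376, 358 and 329 CPM in *X. tropicalis* embryos (log2 fold change 0.02 ± 0.10 SE, edgeR adjusted p = 0.957). The ADP/ATP carrier slc25a4, which exchanges matrix ATP for cytosolic ADP, had 4.31, 6.57 and 4.36 CPM in hybrids, against 3.41, 4.08 and 8.89 CPM. No feature is named slc25a5 or slc25a6. The feature MGC75700, which the table pairs with the human name *SLC25A5* and which was taken up after its values were seen, had 1520, 1425 and 1699 CPM in hybrids, against 2127, 1751 and 1641 CPM in *X. tropicalis*. Its log2 fold change of -0.25 ± 0.12 SE did not pass (edgeR adjusted p = 0.310). Of the ATP-Mg/phosphate carriers, slc25a25-like averaged 65.1 ± 6.92 CPM in hybrids, against 63.8 ± 13.9 CPM in *X. tropicalis*, and slc25a24 had 3.09, 3.38 and 5.53 CPM in hybrids, against 9.37, 3.57 and 8.15 CPM. The third, slc25a23, had 1.72, 0.305 and 0 CPM in hybrids, against 1.92, 3.44 and 2.69 CPM.

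The carboxylate carriers showed the same picture. The citrate carrier slc25a1, which exports citrate for lipid synthesis, had 111, 109 and 119 CPM in hybrids, against 136, 122 and 127 CPM in *X. tropicalis*. The groups did not overlap, but the log2 fold change was -0.18 ± 0.12 SE (edgeR adjusted p = 0.496). The oxoglutarate/malate carrier slc25a11, part of the malate-aspartate shuttle, had 21.6, 30.7 and 47.6 CPM in hybrids, against 19.9, 24.6 and 17.7 CPM in *X. tropicalis* embryos (log2 fold change 0.68 ± 0.29 SE, edgeR adjusted p = 0.249). Hybrid replicate 42 was the highest, and replicate 40 lay within the *X. tropicalis* range. The dicarboxylate carrier slc25a10 averaged 25.9 ± 3.22 CPM in hybrids, against 24.6 ± 5.10 CPM in *X. tropicalis*, and the oxodicarboxylate carrier slc25a21 had 8.115 ± 4.94 CPM in hybrids, against 6.002 ± 1.94 CPM.

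Besides slc25a29, the 5 other maternal amino acid carriers did not pass. The aspartate/glutamate carriers slc25a12 and slc25a13 feed the malate-aspartate shuttle. The feature slc25a13 had 92.6, 103 and 98.3 CPM in hybrids, against 99.2, 87.7 and 96.3 CPM (log2 fold change 0.05 ± 0.13 SE). The feature slc25a12 had 7.90, 10.1 and 3.28 CPM in hybrids, against 7.58, 7.35 and 5.66 CPM. The branched-chain amino acid carrier slc25a44 averaged 285.7 ± 25.2 CPM in hybrids, against 317.5 ± 51.7 CPM in *X. tropicalis*, and the glycine carrier slc25a38 had 8.83 ± 2.26 CPM in hybrids, against 6.04 ± 3.52 CPM. The glutamate carrier slc25a22 was at 0.922 ± 0.772 CPM in hybrids and at 1.78 ± 0.473 CPM in *X. tropicalis* embryos. The carnitine-acylcarnitine carrier slc25a20.2, which brings fatty acids in for oxidation, had 60.1, 57.1 and 53.7 CPM in hybrids, against 57.4, 48.7 and 49.97 CPM (log2 fold change 0.13 ± 0.15 SE, edgeR adjusted p = 0.758).

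Of the glutathione carriers, slc25a40 had 19.4, 21.4 and 22.6 CPM in hybrids, against 14.2, 15.4 and 11.7 CPM in *X. tropicalis* embryos (log2 fold change 0.62 ± 0.23 SE, edgeR adjusted p = 0.197). The groups did not overlap. Its partner slc25a39 spread widely within both groups, with 127, 225 and 240 CPM in hybrids, against 115, 207 and 196 CPM in *X. tropicalis*. The mitochondrial iron carriers slc25a37 and slc25a28 (mitoferrins) did not pass. The feature slc25a37 had 2.88, 3.52 and 3.07 CPM in hybrids, against 2.57, 2.92 and 1.06 CPM, and slc25a28 had 13.1, 16.8 and 10.4 CPM, against 13.0, 24.9 and 21.2 CPM.

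The 8 maternal cofactor and nucleotide carriers had log2 fold changes from -1.84 to 0.63 with 0 called (edgeR; DESeq2 called 0 of them as well, and 0 had an unadjusted p under 0.05). The peroxisomal carrier slc25a17 averaged 85.9 ± 13.5 CPM in hybrids, against 109.96 ± 32.7 CPM in *X. tropicalis*. The S-adenosylmethionine carrier slc25a26 averaged 13.99 ± 4.02 CPM in hybrids, against 10.5 ± 1.76 CPM, and the pyrimidine nucleotide carrier slc25a36 27.7 ± 4.15 CPM in hybrids, against 31.1 ± 2.38 CPM. The coenzyme A-linked carrier slc25a16 averaged 36.6 ± 9.68 CPM in hybrids, against 27.3 ± 5.77 CPM, and the folate carrier slc25a32 6.13 ± 2.84 CPM in hybrids, against 3.96 ± 2.21 CPM. The NAD carrier slc25a51 averaged 4.40 ± 2.51 CPM in hybrids, against 3.49 ± 0.735 CPM, and slc25a42, a coenzyme A carrier, was under 1 CPM in every library. In all 8 the groups overlapped. The outer membrane protein slc25a46, known for a role in mitochondrial shape, had 46.6, 55.4 and 55.3 CPM in hybrids, against 31.7, 45.5 and 45.6 CPM in *X. tropicalis*. Its groups were apart by a narrow gap (log2 fold change 0.36 ± 0.19 SE, edgeR adjusted p = 0.382). Of the less characterised carriers, slc25a34 averaged 40.9 ± 9.56 CPM in hybrids, against 38.99 ± 5.60 CPM in *X. tropicalis*, and slc25a45 12.8 ± 4.32 CPM in hybrids, against 11.2 ± 6.70 CPM.

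Paternal transcripts were found for many carriers. Of the 46 *X. laevis* members, 42 were tested. Of these, 21 lay above the *X. tropicalis* library background and 0 below it with edgeR. DESeq2 gave 24 and 0. An unadjusted p under 0.05 in edgeR was found for 24 and 0, and the share of all features at that threshold was not counted. Among all *X. laevis* features tested, 39.2% lay above background and 0.283% below with edgeR. With DESeq2, 11291 of all 24726 lay above and 121 below. The other 25 members comprised 21 that did not pass and 4 with under 10 counts over the 6 libraries, which were not tested (slc25a4.L, slc25a4.S, slc25a11.L and slc25a20.2.L). Apart from slc25a21.L and slc25a43.L, the members that did not pass averaged at most 1.22 CPM in hybrids. In 22 members the *X. tropicalis* libraries had 0 counts. Summed over the 46 features, hybrids had 94.1, 110.5 and 131 CPM, against 18.5, 18.97 and 16.96 CPM in *X. tropicalis* libraries, so a part of these counts was background.

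The paternal features with the highest hybrid CPM among those above background are given next; CPM are not divided by transcript length, so they do not rank the genes by transcript number. The phosphate carrier copy slc25a3.S had 11.5, 13.7 and 12.8 CPM in hybrids, against 0, 0.401 and 0.0373 CPM in *X. tropicalis* libraries (log2 fold change 6.43 ± 0.89 SE, edgeR adjusted p = 2.56e-07). The branched-chain amino acid carrier copy slc25a44.L had 5.19, 6.88 and 10.6 CPM in hybrids, against 0.0204, 0.0317 and 0.504 CPM. The ATP-Mg/phosphate carrier copy slc25a25-like.S had 6.02, 7.18 and 8.53 CPM, against 0.265, 0 and 0.401 CPM. Together with slc25a29.S, described above, these had a background of at most 8.70% of their hybrid level.

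In this set slc25a51.1 and slc25a40.L stood on a larger background, and so did slc25a21.L, which is outside the set. The NAD carrier feature slc25a51.1, on an unplaced scaffold, had 4.80, 8.55 and 7.47 CPM in hybrids, against 2.46, 0.729 and 0.691 CPM in *X. tropicalis* libraries (log2 fold change 2.42 ± 0.69 SE, edgeR adjusted p = 0.00503). The glutathione carrier copy slc25a40.L had 11.2, 16.4 and 22.6 CPM in hybrids, against 10.3, 9.07 and 5.56 CPM. Its background was 49.6% of its hybrid level, and its log2 fold change of 1.01 ± 0.41 SE passed narrowly (edgeR adjusted p = 0.0486). Leaving out hybrid library 41 or 42, or library 38 or 39 of *X. tropicalis*, ended that call (adjusted p up to 0.222 in edgeR), and so did library totals in place of TMM factors (adjusted p = 0.0916). The oxodicarboxylate carrier copy slc25a21.L averaged 4.91 CPM in hybrids, against 3.15 CPM in *X. tropicalis* libraries, and did not pass.

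Several paternal copies had little or no background. The mitoferrin copy slc25a28.S had 446, 310 and 340 counts in hybrids and 0 in each *X. tropicalis* library. Pooled over libraries it was at least 488-fold higher against a floor of 3 counts over the group. This floor, used for slc25a1.L as well, covers counting error only. The citrate carrier copy slc25a1.L had 208, 226 and 66 counts in hybrids and 0 in *X. tropicalis* (at least 223-fold). The peroxisomal carrier copy slc25a17.S had 162, 42 and 242 counts, and the pyrimidine nucleotide carrier copy slc25a36.S 30, 133 and 268 counts, both with 0 in *X. tropicalis*. Lower counts above the same background of 0 were found on slc25a25-like.1 (22, 58 and 116), slc25a34.L (104, 10 and 35) and slc25a30.S (30, 12 and 84). The slc25a34.L call ended without hybrid replicate 40 (edgeR adjusted p = 0.168), and the slc25a30.S call without hybrid replicate 42 or any 1 *X. tropicalis* library (adjusted p up to 0.162). The copy slc25a16.S had 1.55, 2.51 and 2.67 CPM in hybrids, against 0.0102, 0.158 and 0 CPM in *X. tropicalis* libraries. By contrast, the ADP/ATP carrier copies slc25a4.L and slc25a4.S had 1 count each over the 3 hybrid libraries. Of the features paired with human *SLC25A5*, MGC75700.L had 137, 182 and 207 CPM in hybrids, against 0.408, 0.327 and 0.373 CPM in *X. tropicalis* libraries. MGC75700.S had 9.56, 18.03 and 28.7 CPM, against at most 0.121 CPM. Those paternal ADP/ATP carrier counts thus lay on MGC75700 features and hardly on slc25a4.

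Part of the *X. laevis* chromosomes 3L and 4L is reported to be lost in this cross. Whether a member lies in a lost part was not determined, since chromosomes were read from feature names alone. On these chromosomes as a whole lie 8 paternal members. Of these, 4 were above background (slc25a3.L, slc25a17.L, slc25a26.L and slc25a37.L), beside 17.8% of all *X. laevis* features of these chromosomes. The slc25a37.L call ended without hybrid replicate 41 or 42 or without *X. tropicalis* library 37 (edgeR adjusted p = 0.208, 0.0749 and 0.0533). The slc25a17.L call ended without hybrid replicate 40 or *X. tropicalis* library 38 (0.111 and 0.0521). On the other L chromosomes 6 of 21 members were above background, beside 37.4% of all features there, and on S chromosomes 9 of 14, beside 39.7%. The S-adenosylmethionine carrier copy slc25a26.L on 4L had 3.33, 4.21 and 3.31 CPM in hybrids, against 0.0204, 0.148 and 0 CPM in *X. tropicalis* libraries. The mitoferrin copy slc25a37.L on 3L had 2.18, 6.95 and 4.16 CPM in hybrids, against 0.163, 1.32 and 1.09 CPM. Copies of slc25a11, slc25a20.2, slc25a23 and slc25a38 on these chromosomes did not pass or were not tested.

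The L and S copies of a gene were compared within the hybrid libraries, with the library as a block. Of 13 names with both copies, 12 had enough counts; 2 were higher on L and 3 higher on S (edgeR with Benjamini-Hochberg adjustment), beside 10.7% and 11.5% of all 4650 pairs tested. The carnitine-acylcarnitine carrier slc25a20.2 had 0, 0 and 1 counts on the 4L copy and 204, 439 and 417 counts on the 4S copy. The S over L count ratio was 1060, with a 95% exact counting interval of 190 to 41907. The S copy averaged 4.77 CPM in hybrids, against a background of 0.701 CPM, and its call above background ended without hybrid replicate 42 (edgeR adjusted p = 0.0544). For the phosphate carrier slc25a3, the 3L copy had 2.06, 0.352 and 0.971 CPM and the 3S copy 11.5, 13.7 and 12.8 CPM (log2 L over S -3.81 ± 0.76 SE, edgeR adjusted p = 0.0141). For slc25a28, the 7L copy had 0, 28 and 1 counts and the 7S copy 446, 310 and 340 (log2 -7.19 ± 2.04 SE, edgeR adjusted p = 0.0476).

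Not every pair leaned to S. The branched-chain amino acid carrier slc25a44 had 5.19, 6.88 and 10.6 CPM on 8L and 0.188, 0.0117 and 0 CPM on 8S (log2 L over S 7.92 ± 1.72 SE, edgeR adjusted p = 0.0190). The mitoferrin gene slc25a37 had 2.18, 6.95 and 4.16 CPM on 3L and 0.0269, 0.434 and 0.0308 CPM on 3S (log2 5.68 ± 1.34 SE, edgeR adjusted p = 0.0255). In both mitoferrin genes the call ended with any 1 hybrid library left out (edgeR adjusted p from 0.0754 to 0.159 for slc25a37 and from 0.0634 to 0.176 for slc25a28). Without hybrid replicate 41, 0 of the 12 pairs passed, and without replicate 42 the pair slc25a20.2 alone did, while the order of the copies stayed in these 5 pairs. L and S features can differ in length and in the reads that can be told apart, so these are differences in counts.

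**Figure D3:**
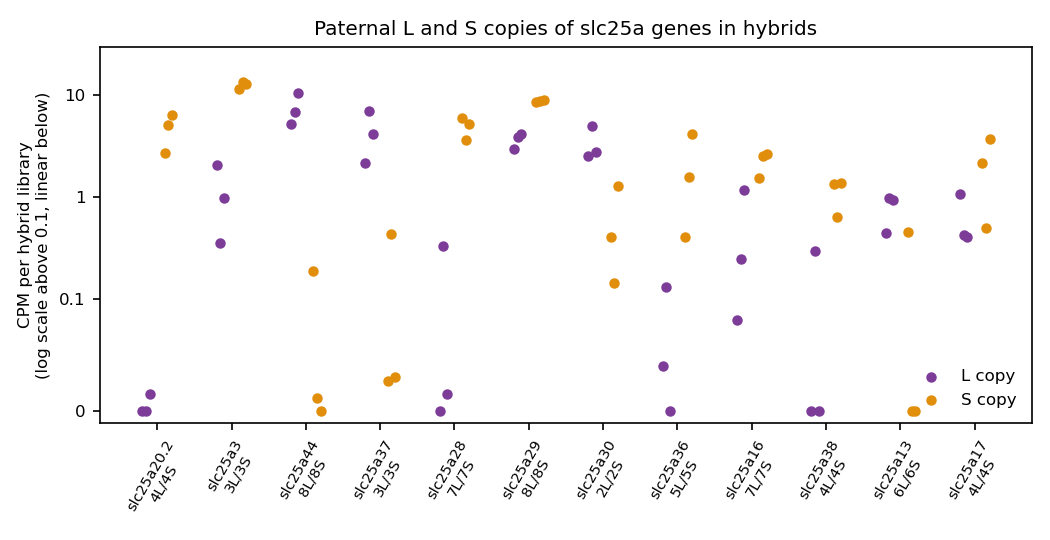
CPM of the paternal L copy (purple) and S copy (orange) of 12 slc25a genes in each of the 3 hybrid libraries, with the chromosomes of both copies under the gene name; the axis is logarithmic above 0.1 CPM and linear below. The L points lie far above the S points for slc25a44 and slc25a37 and far below them for slc25a20.2, slc25a3 and slc25a28.

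Paternal copies made up very different parts of each gene's hybrid level. After subtraction of the background, 29 genes with features of both species and at least 1 CPM in hybrids had a median paternal share of 6.87%, close to the 7.12% of all 8827 such genes. The share was 47.0% ± 9.06 for slc25a29, with 41.4%, 42.1% and 57.4% in the single hybrid libraries (SD, n = 3). It was 49.6% ± 16.7 for slc25a37, 28.03% ± 7.82 for slc25a28, 26.4% ± 13.0 for slc25a40 (43.3% without the subtraction) and 20.9% ± 4.57 for slc25a26. The highest, 81.0% ± 17.6, was that of slc25a43, whose maternal feature had at most 0.726 CPM in any hybrid library. Its only paternal feature, slc25a43.L, did not pass as above background (edgeR adjusted p = 0.0805; background 22.9% of its hybrid level). For slc25a3 the share was 3.66% ± 0.127 and for slc25a13 0.814% ± 0.0137, and it was 0 for slc25a11, from slc25a11.L alone. The separately named feature slc25a11.1, with 0, 0 and 16 counts in hybrids and 0 in *X. tropicalis*, does not enter that share. Likewise slc25a25-like.1 and slc25a51.1 do not enter the shares of slc25a25-like (9.70%) and slc25a51 (8.50%), which leave out those paternal counts. For slc25a51 the omission is large. The feature slc25a51.1 had 4.80, 8.55 and 7.47 CPM in hybrids, with a mean background of 1.29 CPM. The maternal slc25a51 feature had 1.72, 6.69 and 4.81 CPM there, so a share that included slc25a51.1 would be far above 8.50%. The features compared differ in sequence and may differ in length, so a share is of counts and not of transcripts.

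**Figure D4:**
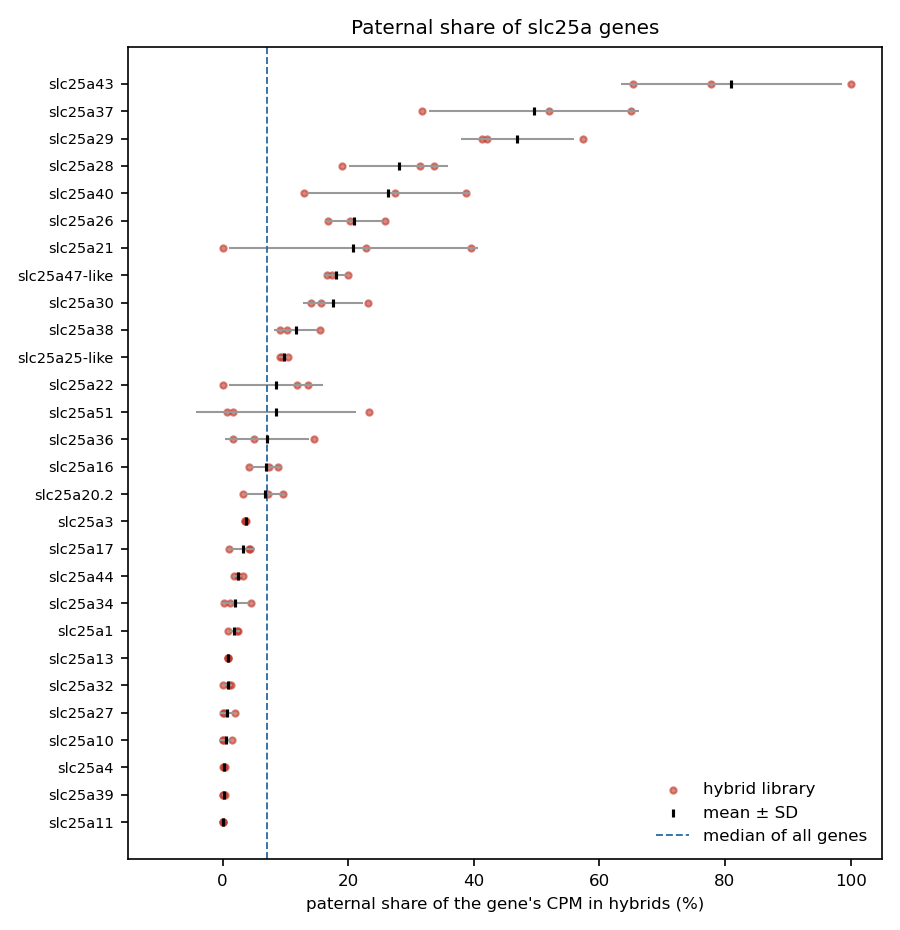
Paternal share of the hybrid CPM of slc25a genes in percent, as single hybrid libraries (red), mean and SD (black tick and grey bar), after subtraction of the *X. tropicalis* library background. The dashed line is the median of all genes, 7.12%; slc25a43, slc25a37 and slc25a29 lie highest and slc25a11 at 0.

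Counting maternal and paternal copies together, 1 of 30 slc25a genes was lower in hybrids and 0 were higher with edgeR. The lower gene was slc25a29. Among all 9536 genes tested with features of both species, 1.74% were lower and 6.73% higher. DESeq2 called 1 slc25a gene lower and 1 higher. Before adjustment, 2 lower and 5 higher sums had p below 0.05 in edgeR, and the share of all genes at that threshold was not counted. The sums join features of the same name, so slc25a11.1, slc25a25-like.1 and slc25a51.1 are in none of them. The slc25a51 sum averaged 4.76 CPM in hybrids, against 3.63 CPM in *X. tropicalis*. The left-out slc25a51.1 alone averaged 6.94 CPM in hybrids, against 1.29 CPM, and a slc25a51 sum that included it was not tested. Over all genes tested, DESeq2 called 263 lower and 1114 higher. With library totals in place of the trimmed-mean factors, calls over all these genes split into 395 higher and 248 lower, in place of 642 and 166. The median log2 fold change was 0.14 for the members and 0.19 for all genes tested, and -0.020 and 0.044 with library totals. The glutathione carrier slc25a40 summed to 30.6, 37.9 and 45.3 CPM in hybrids, against 24.5, 24.5 and 17.3 CPM in *X. tropicalis* embryos (log2 fold change 0.78 ± 0.22 SE, edgeR adjusted p = 0.0537). It passed without hybrid replicate 40 (edgeR adjusted p = 0.0353). Background was not subtracted from the gene sums, and slc25a40.L had 10.3, 9.07 and 5.56 CPM in *X. tropicalis* libraries. The mitoferrin gene slc25a37 summed to 5.08, 10.9 and 7.26 CPM in hybrids, against 2.73, 4.26 and 2.15 CPM, and did not pass (log2 fold change 1.35 ± 0.49 SE, edgeR adjusted p = 0.116).

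A list of 38 related names covered other transporters, outer membrane channels, the import machinery of carriers, carnitine enzymes and regulators, and 28 had an *X. tropicalis* feature. Of these 28, 1 was lower and 0 were higher, 25 did not pass and 2 were not tested, near the 2.97% lower and 0.767% higher of all *X. tropicalis* features. The lower feature was letm1, an inner membrane protein of cation and proton exchange. It had 160, 129 and 151 CPM in hybrids, against 327, 272 and 259 CPM in *X. tropicalis* embryos (log2 fold change -0.96 ± 0.14 SE, edgeR adjusted p = 0.00247). Of 34 *X. laevis* features of the list, 13 lay above background and 0 below, 20 did not pass and 1 was not tested, near the 39.2% above and 0.283% below of all *X. laevis* features. Among those above background, the carrier import receptor copy tomm70a.S had 12.5, 28.6 and 32.5 CPM in hybrids, against 0.0306, 0.665 and 1.06 CPM. The carrier translocase copy timm22.S had 5.78, 5.93 and 4.68 CPM, against at most 0.0204 CPM, and letm1.L had 6.26, 6.85 and 2.46 CPM, against at most 0.0408 CPM. The import chaperone copies timm10.L and timm8a.L were at 1.87 CPM in hybrids each, against at most 0.0211 CPM in any *X. tropicalis* library. The import receptor copy tomm20.L had 0.511, 3.73 and 0.693 CPM in hybrids, against at most 0.0106 CPM.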

How the data were processed

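PolyA RNA of 6 whole-embryo samples was measured. The values the authors deposited are whole-number counts for each feature, not normalized, and BWA 0.7.10 is named per the submitters' processing notes. The sources used here do not give the counting program, transcript models, genome builds or strand use, so reads shared by L and S copies, by both species or by near-identical carriers may have been counted on either, and no coordinates or sequences are given. Species and chromosome were read from feature names.

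Counts were tested with edgeR 4.0.16 (R 4.3.3; quasi-likelihood, Benjamini-Hochberg over all features at 0.05), with library totals over all features and TMM factors from *X. tropicalis* features. CPM use that effective library size. *X. tropicalis* features and gene sums passed the edgeR filter; *X. laevis* features and L/S pairs needed 10 counts. Gene sums join features of both species with the same name. SE is the log2 fold change over the square root of F. Self-tests on simulated counts with less spread than these data recovered most known large changes. They do not measure the power or error rate of the tests on these data. Alternatives were DESeq2 1.42.0, other scaling and filters, and leaving out each library. Figures used matplotlib 3.10.9.

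Values per library were fixed for the called *X. tropicalis* features and gene sums, the carriers slc25a1, a3, a4, a11, a12, a13, a20 and a37, the 6 highest paternal features above background, the 4 largest called L/S differences and the 6 related features with the smallest adjusted p. Other members were named by role, and slc25a3 among the L/S pairs and letm1 among related features as further calls. Members and lists were chosen with earlier results of these data known. Within groups, replicate libraries were farther apart than counting noise gives (a chi-square of 74.7 to 133 for each degree of freedom). The p-values measure the spread of these libraries. Intervals and floors cover counting error only, since reads copied by PCR are not separate molecules. The gene name of 1 member is not reported here; it stays in the counts and sums.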

Additional observations from a re-analysis of the deposited data

How the results depend on the processing

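No paired analysis was run, because the labels do not say whether a hybrid and an *X. tropicalis* library share a parent. For L over S, leaving out the library block kept 2 and 3 calls. Library totals in place of TMM factors moved the median log2 fold change of all *X. tropicalis* features to -0.15; slc25a3 then stood at -0.13, slc25a12 at -0.080, slc25a13 at -0.10 and slc25a20.2 at -0.015. Maternal members called lower numbered 2, in place of 1, with DESeq2, library totals, no filter or 1 CPM in 3 libraries, and those called higher 1, in place of 0, with DESeq2 or no filter: these were slc25a30 and slc25a48. Over all *X. tropicalis* features, lower calls in these settings were 805 and 681 of 14079, 596 of 18062 and 440 of 12017. Higher calls were 32.7% of all calls with DESeq2, and 249 of 18062 features with no filter. Gene sums called higher numbered 1 with DESeq2 or 1 CPM in 3 libraries, beside 1114 of 9536 and 637 of 8684 genes. Those called lower numbered 2 with library totals, beside 248 of 9536 genes. L over S calls were 4 and 7 with DESeq2, beside 1061 and 1160 of all 4650 pairs. They were 1 and 1 where pairs with background over 10% on either copy were left out, beside 223 and 227 of 2149 pairs. Paternal members above background numbered 14 of 17 tested with 1 CPM in 3 libraries, beside 6125 of 10018 *X. laevis* features. Leaving out libraries in turn, gene sums called higher ranged from 0 to 2, L calls from 0 to 1 and S calls from 0 to 2. Over all genes or pairs these ranges were 295 to 693, 218 to 346 and 223 to 335. Paternal members above background ranged from 16 to 20, beside 8171 to 9434 *X. laevis* features, and the median paternal share from 5.26% to 6.82%. The maternal log2 fold change of slc25a3 then ranged from -0.031 to 0.064, that of slc25a4 from -0.35 to 0.44 and that of slc25a12 from -0.29 to 0.40. The causes were not tested. Depth limits the paternal copies with few counts.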

Other observations

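Among the 46 *X. laevis* members, 6 had 0 counts in a hybrid library and over 20 in another, such as slc25a13.S with 34, 0 and 0 counts and slc25a38.L with 0, 25 and 0. Counts of *X. laevis* members in *X. tropicalis* libraries were likewise uneven, with 0, 0 and 43 on slc25a13.L and 0, 48 and 0 on slc25a23.L. The maternal amino acid carrier feature LOC100495907-like, paired with human *SLC25A15*, had 17.9, 18.3 and 20.5 CPM in hybrids, against 9.99, 18.6 and 12.1 CPM in *X. tropicalis* and did not pass (edgeR adjusted p = 0.440). The less characterised slc25a47-like had 4.54, 5.41 and 4.64 CPM in hybrids, against 6.14, 13.1 and 8.002 CPM in *X. tropicalis*, without overlap, and did not pass (edgeR adjusted p = 0.256).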
